A study of Mus musculus with 6 samples.

Results

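ATP-binding cassette (ABC) efflux transporters were examined in RNA-seq data from cerebral microvessels of TEKCRIF1 mice. The 9 genes, *Abcb1a*, *Abcb1b*, *Abcg2*, *Abcc1*, *Abcc4*, *Abcc5*, *Abcc6*, *Abca1* and *Abcg1*, were taken by gene symbol from the 23183 symbols listed for every library, and each of them was found. Microvessels were isolated from the brains of 3 wild-type (WT) and 3 knockout (KO) mice on a C57BL/6 background, and 1 library was sequenced per mouse. In KO mice both *Crif1* (*Gadd45gip1*) alleles are flanked by loxP sites and the segment between them is removed by a Cre recombinase under the Tek promoter, which is active in endothelial cells and is known to act in part of the blood lineage as well. WT mice carry the same Tek-cre with unaltered *Crif1* alleles, so both groups share the transgene. No treatment is recorded, and the age and sex of these mice and the extent of the deleted segment are not given in the sources used here.

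ABC transporters bind and hydrolyse ATP to move their substrates across a membrane. At the blood-brain barrier, P-glycoprotein, the product of *Abcb1a* in mouse brain endothelium, and the breast cancer resistance protein, the product of *Abcg2*, sit on the blood-facing side of the endothelial cell and return lipophilic drugs to the blood. The ABCC proteins export organic anions, among them conjugates with glutathione, and *Abca1* and *Abcg1* pass cholesterol to lipoproteins.

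Expression was given as FPKM, a fragment count scaled to exon length and to sequencing depth, so that levels can be set side by side between genes. Depth was estimated from the steps between low FPKM values at 8800000 to 11400000 fragments per library in WT mice and 6400000 to 11700000 in KO mice. The groups were set against each other by limma, on log2(FPKM + 1), for the 14247 genes whose mean over the libraries reached 1 FPKM, and 8 of the 9 transporters met that limit. Values below are listed in the order of mice 1, 2 and 3 of a group, ± marks the SD of 3 mice, and permutation tests are exact and two-sided. *Gadd45gip1* was 18.8, 15.3 and 16.5 FPKM across the WT mice against 10.8, 7.54 and 10.4 FPKM across the KO mice, so that every KO library lay under every WT library (log2 fold change −0.77, SE 0.22, limma p = 0.00534, exact permutation p = 0.1, adjusted p = 0.841). In these bulk samples, fewer cells of a type and less RNA per cell cannot be told apart. The 7 endothelial markers on the list used were all found above 0 in every library, and their summed level was 765 to 1061 FPKM in WT mice and 670 to 901 FPKM in KO mice. One of them, *Cdh5*, the gene of the adherens junction cadherin of endothelial cells, had 90.1 ± 3.02 FPKM for WT and 43.8 ± 6.42 FPKM for KO (SD, n = 3). In the other 6 the groups overlapped, with log2 fold changes from −0.18 for *Esam* to 0.09 for *Pecam1*. Of the 6 pericyte markers, 3 (*Anpep*, *Pdgfrb* and *Cspg4*) were lower in KO mice without overlap, beside 5.70% of all genes tested, whereas *Rgs5* had a log2 fold change of 0.24. The 4 astrocyte and 4 fibroblast markers all had negative log2 fold changes, and *Gfap*, *Col1a1* and the microglial *Cx3cr1* were lower without overlap. Another microglial marker, *P2ry12*, went the other way, with a log2 fold change of 0.52. The neuronal *Slc17a7* and the oligodendrocyte *Mag*, each 1 of 4 on its list, were lower at an unadjusted limma p under 0.05, with overlap. Among all genes tested, 3.11% were lower at that limit. The oligodendrocyte *Mog* went the other way, with a log2 fold change of 0.57. The part of these cell types in the transporter values was not tested. The choroid plexus list, with 4 of 4 genes found and above 0 in every library, summed to 2844 to 3309 FPKM in WT mice. It summed to 8772, 2941 and 10524 FPKM in KO 1, KO 2 and KO 3. Of these 4 genes, *Kl* was higher at an unadjusted limma p under 0.05, with overlap (log2 fold change 0.94, exact permutation p = 0.3). Beside it, 2.77% of all genes tested were higher at that limit.

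*Abcb1a* and *Abcb1b* are paralogs that both encode P-glycoprotein. In the GENCODE M21 annotation of GRCm38, the build that the submitters' processing notes name as mm10, *Abcb1a* lies on the plus strand at chr5:8660077-8748575 and *Abcb1b* on the plus strand at chr5:8798147-8866315, with 49571 bases between them. Their coding sequences have 3828 bases each and are identical at 88.0% of aligned positions, and the longest identical run has 338 bases. Of the stretches of 100 bases (the read length) along the longest coding transcript, 8.72% of those in *Abcb1b* also occur in *Abcb1a*, and 7.72% of those in *Abcb1a* occur in *Abcb1b* or *Abcb4*. The other 7 transporters shared no such stretch with another annotated gene (0 of 5618 for *Abcg2*, for example). The following stretches show both extremes, because they set which reads can tell the paralogs apart. They are printed from 5′ to 3′ on the coding strand, with bases that differ between the paralogs in capitals. The first pair, from exon 13 of 28 in both genes (chr5:8702387-8702486 in *Abcb1a* and chr5:8824707-8824806 in *Abcb1b*), is identical at all 100 bases, so a read inside it fits both genes.
Abcb1a: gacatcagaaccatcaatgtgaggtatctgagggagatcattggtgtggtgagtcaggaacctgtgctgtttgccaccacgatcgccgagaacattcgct
Abcb1b: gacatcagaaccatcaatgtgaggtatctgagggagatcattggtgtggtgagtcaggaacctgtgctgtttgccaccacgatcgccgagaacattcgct
The second pair, from exon 16 of both genes (chr5:8714887-8714986 in *Abcb1a* and chr5:8827326-8827425 in *Abcb1b*), differs at 32 of 100 bases, the most of any such stretch that lies within 1 exon of both genes.
Abcb1a: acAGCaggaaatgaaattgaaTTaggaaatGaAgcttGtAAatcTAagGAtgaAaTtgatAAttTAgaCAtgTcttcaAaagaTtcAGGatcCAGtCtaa
Abcb1b: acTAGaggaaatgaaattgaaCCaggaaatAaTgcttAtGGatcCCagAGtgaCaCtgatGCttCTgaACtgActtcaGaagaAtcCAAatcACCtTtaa

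The transporters differed widely in level. In WT mice the order by mean FPKM was *Abcg2* (39.3), *Abcb1a* (38.6), *Abca1* (24.1), *Abcc5* (16.2), *Abcc4* (12.6), *Abcg1* (6.71), *Abcc1* (6.20), *Abcc6* (2.18) and *Abcb1b* (0.892). *Abcg2* and *Abcb1a* ranked 1863 and 1916 among the 23183 genes by their WT mean, and together with *Abca1* they carried 26.8%, 26.3% and 16.4% of the summed FPKM of the 9 genes. Of the 8 pairs of neighbours in that order, the ranges of the WT mice overlapped for *Abcg2* and *Abcb1a*, for *Abcc5* and *Abcc4*, and for *Abcg1* and *Abcc1*. Such ranges leave out that both genes were measured in the same libraries. Within a library, *Abcc5* exceeded *Abcc4* in 4 of 6 and *Abcg1* exceeded *Abcc1* in 3 of 6. In KO mice the ranges of *Abcg2* and *Abcb1a* did not overlap, and *Abcg2* was the higher of the pair in 5 of 6 libraries. *Abcb1a* exceeded *Abca1*, *Abcc4* exceeded *Abcg1* and *Abcc1* exceeded *Abcc6* in 6 of 6 libraries. The summed FPKM of the 9 genes was 163, 148 and 129 across the WT mice against 127, 146 and 131 across the KO mice. The groups overlapped in this sum, with means of 147 ± 16.97 for WT and 135 ± 10.2 for KO (exact permutation p = 0.4).

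**Figure D1:**
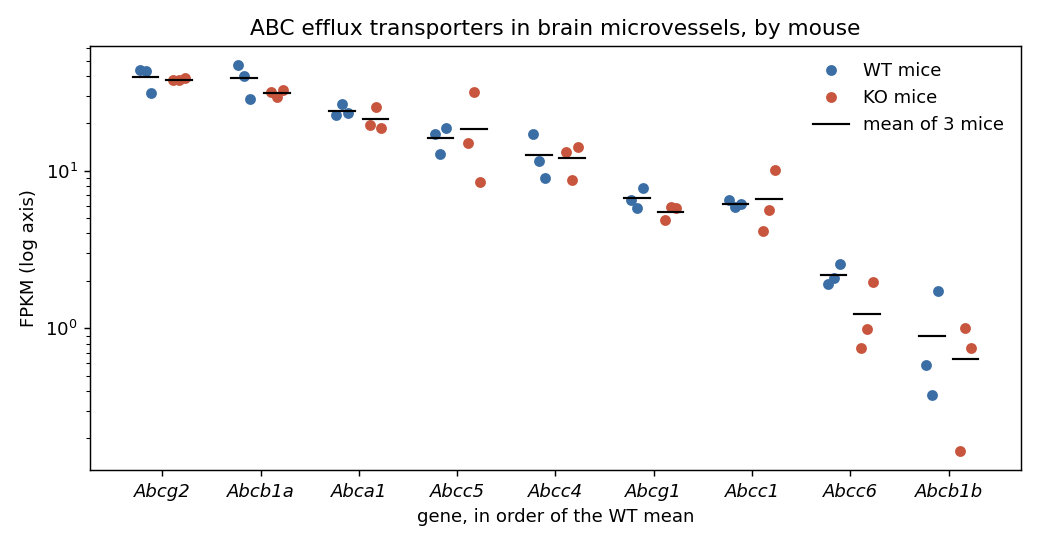
FPKM of each of the 9 efflux transporters in every mouse on a log axis, ordered by the WT mean, with WT mice in blue, KO mice in red and the mean of 3 mice as a black line. WT and KO points overlap for each gene, and levels run from a WT mean of 39.3 FPKM for *Abcg2* to 0.892 FPKM for *Abcb1b*.

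None of the transporters differed between KO and WT mice beyond the spread of the libraries. Of the 8 tested, 0 had an adjusted limma p under 0.05, where 0% of all genes did so. At an unadjusted limma p under 0.05 there were also 0 of 8, beside 5.88% of all genes tested (838 genes). In 0 of 8 did the groups fail to overlap, beside 11.1% of all genes. The log2 fold change was negative for 6 of the 8, with a median of −0.11, and the median over all genes tested was −0.01, with 50.8% of genes negative. When libraries were scaled to the endothelial markers, which moved the median of all genes to 0.20, *Abcg2*, *Abcc4* and *Abca1* turned to positive values of 0.17, 0.18 and 0.02, and *Abcb1a*, *Abcg1* and *Abcc6* moved to −0.07, −0.03 and −0.33. With *Cdh5* left out of the scaling, a choice made after its values were seen, *Abca1* was negative again, at −0.11. With 3 mice against 3, an exact two-sided permutation test cannot give a p below 0.1, and the smallest found among the 9 transporters was 0.2, for *Abcc6* and for *Abcg1*. With 1 library left out, between 0 and 2 transporters were lower in KO mice without overlap and 0 were higher. Among all genes the share lower without overlap was then 10.4% without WT 1, 8.87% without WT 2, 11.4% without WT 3, 9.35% without KO 1, 14.4% without KO 2 and 12% without KO 3.

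**Figure D2:**
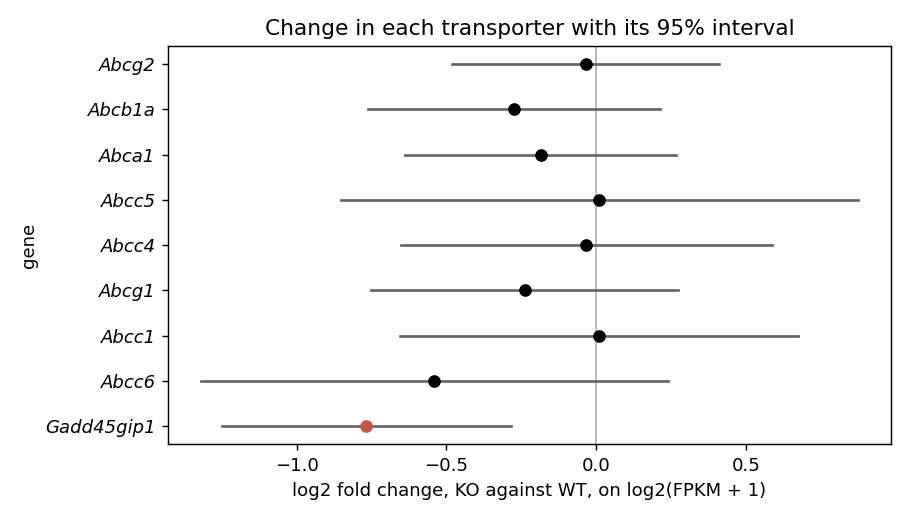
Log2 fold change of KO against WT mice for the 8 tested transporters (black points) and for the targeted gene *Gadd45gip1* (red point), with 95% confidence intervals from limma as bars. The interval of every transporter includes 0, and that of *Gadd45gip1* runs from −1.25 to −0.28.

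Of the 2 multidrug pumps tested, *Abcb1a* had the larger log2 fold change. It had 46.8, 40.2 and 28.7 FPKM across the WT mice against 31.6, 29.2 and 32.5 FPKM across the KO mice. WT 1 and WT 2 lay above every KO mouse, whereas WT 3 lay below all of them. The mean was 38.6 ± 9.14 FPKM for WT and 31.1 ± 1.69 FPKM for KO (SD, n = 3), a log2 fold change of −0.28 (SE 0.22, limma p = 0.237, exact permutation p = 0.4, adjusted p = 0.881). The log2 fold change was −0.07 under endothelial marker scaling, −0.13 without WT 1 and −0.47 without WT 3. Its 95% interval, −0.76 to 0.21, covers a KO level between 0.590 and 1.16 times the WT level, so a fall to 0.590 of the WT level is within what these libraries allow.

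*Abcg2*, a pump that works as a dimer, lies on the plus strand at chr6:58584523-58695676. It had 43.4, 43.3 and 31.2 FPKM across the WT mice against 37.5, 37.5 and 38.7 FPKM across the KO mice. Again WT 3 was the lowest library, and the KO mice lay between it and the other WT mice. The mean was 39.3 ± 7.03 FPKM for WT and 37.9 ± 0.674 FPKM for KO (SD, n = 3), with a log2 fold change of −0.04 (SE 0.20, 95% interval −0.48 to 0.41, limma p = 0.863, exact permutation p = 1.0, adjusted p = 0.990). After a correction for GC content it was −0.23. Without WT 3, both pumps were lower in every remaining KO library than in every remaining WT library. Of all genes in that comparison, 11.4% were lower without overlap, and neither pump passed the test. The summed endothelial markers were likewise lower in WT 3 (765 FPKM) than in the other WT mice. They were lowest of all in KO 2 (670 FPKM), where *Abcg2* was 37.5 FPKM, as in KO 1. Among WT mice, the endothelial *Cdh5* and *Erg* were not lowest in WT 3. By mean log2(FPKM + 1), the pericyte and fibroblast lists were also lowest among WT libraries in WT 3, unlike the other non-endothelial lists. The part of these cell types in the values of the pumps was not tested.

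*Abcb1b* had the lowest mean of the 9 in both groups, although *Abcc6* was just lower in KO 2, at 0.992 FPKM. *Abcb1b* had 0.582, 0.376 and 1.72 FPKM across the WT mice against 0.167, 1.00 and 0.751 FPKM across the KO mice. These values rest on an estimated 6 to 84 fragments per library, against 935 to 2640 for *Abcb1a*, and with 6 fragments in KO 1 the counting interval was 0.0612 to 0.363 FPKM. Its mean over the libraries was too low for the limma test, and KO and WT ranges overlapped (exact permutation p = 0.7). Within a library, *Abcb1b* amounted to 1.24%, 0.934% and 5.98% of *Abcb1a* across the WT mice against 0.528%, 3.42% and 2.31% across the KO mice. The log2 ratio of both paralogs differed by −0.25 between KO and WT mice, less than the SD of either group (1.44 and 1.42, n = 3, exact permutation p = 1.0). The sign of that difference turned without WT 3, to 0.58, and without KO 1, to 0.56. How reads from stretches that the paralogs share were assigned is not given in the sources used here, so the split between *Abcb1a* and *Abcb1b* is uncertain.

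The 4 ABCC exporters varied more between the libraries of KO mice than between those of WT mice, with the exception of *Abcc4*. *Abcc4*, which exports cyclic nucleotides and conjugated anions, lies on the minus strand at chr14:118482692-118706219. It had 17.2, 11.5 and 8.99 FPKM across the WT mice against 13.2, 8.80 and 14.2 FPKM across the KO mice. WT 1 lay above every other library and KO 2 below, and the groups overlapped, with a log2 fold change of −0.03 (SE 0.28, 95% interval −0.65 to 0.59, limma p = 0.906, exact permutation p = 0.9, adjusted p = 0.993).

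*Abcc5*, another exporter of cyclic nucleotides, is on the minus strand at chr16:20331303-20426394. It had 17.1, 12.8 and 18.6 FPKM across the WT mice against 15.1, 31.7 and 8.50 FPKM across the KO mice. KO mice thus held both the highest and the lowest value, and their coefficient of variation was 64.8% against 18.8% in WT mice. The log2 fold change was 0.01 (SE 0.39, 95% interval −0.85 to 0.87, limma p = 0.980, exact permutation p = 0.9, adjusted p = 0.999), and it was −0.46 without KO 2 and 0.43 without KO 3. The 4 neuronal markers on the list used were all found, above 0 in every library, and summed to 152, 223 and 277 FPKM across the WT mice against 145, 246 and 101 FPKM across the KO mice. They were likewise lowest in KO 3, and KO 2 was second to WT 3. The part of neuronal RNA in the *Abcc5* values was not tested.

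*Abcc1*, which exports glutathione conjugates and leukotrienes, is on the plus strand at chr16:14361558-14475737. It had 6.53, 5.92 and 6.14 FPKM across the WT mice against 4.15, 5.61 and 10.1 FPKM across the KO mice. KO 1 and KO 2 lay below every WT mouse, and KO 3 lay above all of them. The log2 fold change was 0.01 with all libraries (SE 0.30, 95% interval −0.66 to 0.67, limma p = 0.979, exact permutation p = 1.0, adjusted p = 0.999) and −0.30 without KO 3. KO 3 was also the library with the highest choroid plexus markers, but KO 1, with the second highest, had the lowest *Abcc1* value. The part of choroid plexus RNA in the *Abcc1* values was not tested.

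*Abcc6*, whose product is needed for ATP release from cells and whose loss leads to ectopic calcification, is on the minus strand at chr7:45967555-46030302. It had 1.91, 2.07 and 2.55 FPKM across the WT mice against 0.749, 0.992 and 1.96 FPKM across the KO mice. KO 1 and KO 2 lay below the WT mice, and KO 3 lay above WT 1. The mean was 2.18 ± 0.335 FPKM for WT and 1.23 ± 0.642 FPKM for KO (SD, n = 3). This gave the log2 fold change farthest from 0 among the transporters tested, −0.54 (SE 0.35, 95% interval −1.32 to 0.24, limma p = 0.153, exact permutation p = 0.2, adjusted p = 0.849). The values rest on an estimated 29 to 145 fragments per library. On a pseudocount of 0.1, which compresses low values less, the log2 fold change was −0.87.

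**Figure D3:**
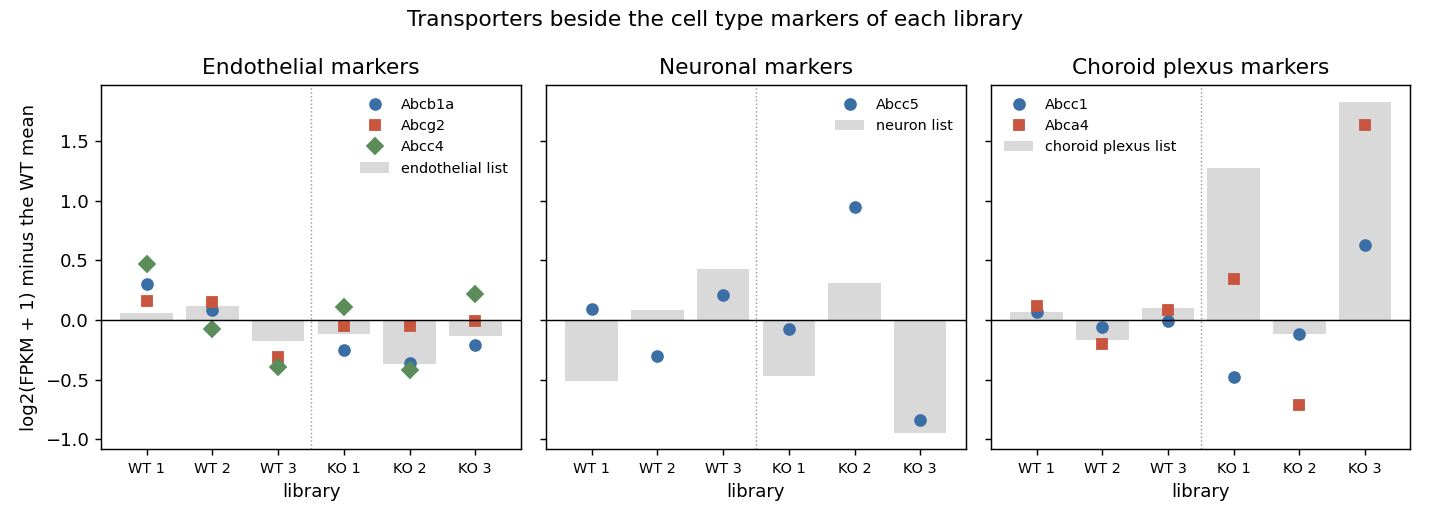
Log2(FPKM + 1) in each library minus the WT mean, for transporters (points) beside the mean of a cell type marker list (grey bars), with WT and KO libraries apart at the dotted line. *Abcb1a*, *Abcg2* and *Abcc4* are lowest among WT libraries in WT 3, as is the endothelial list, *Abcc5* is highest in KO 2 and lowest in KO 3, and *Abcc1* and *Abca4* are highest in KO 3, where the choroid plexus list is highest.

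Both sterol exporters had lower means in KO mice, although *Abca1* turned to 0.02 on the log2 scale under endothelial marker scaling and was −0.11 when that scaling left out *Cdh5*. *Abca1*, which hands cholesterol and phospholipid to lipid-poor apolipoproteins, lies on the minus strand at chr4:53030787-53159895. It had 22.7, 26.5 and 23.1 FPKM across the WT mice against 19.4, 25.5 and 18.7 FPKM across the KO mice. KO 1 and KO 3 lay below the WT mice and KO 2 lay among them, and the log2 fold change was −0.19 (SE 0.20, 95% interval −0.64 to 0.27, limma p = 0.380, exact permutation p = 0.3, adjusted p = 0.928). *Abcg1*, which loads cholesterol onto high-density lipoprotein, lies on the plus strand at chr17:31057675-31117988. It had 6.51, 5.80 and 7.82 FPKM across the WT mice against 4.87, 5.88 and 5.77 FPKM across the KO mice. The ranges met only at WT 2 and KO 2, with a log2 fold change of −0.24 (SE 0.23, 95% interval −0.75 to 0.27, limma p = 0.323, exact permutation p = 0.2, adjusted p = 0.916). Without KO 2 the groups overlapped in neither gene, beside 14.4% of all genes that were lower without overlap, and neither passed the test.

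Other members of the ABC family were taken from a list, of which 41 genes are described here and 27 were tested. At an unadjusted limma p under 0.05, 0 were higher and 1 was lower in KO mice, beside 2.77% and 3.11% of all genes, and 0 passed after adjustment. Among those tested, the groups did not overlap for 1 gene that was higher and 1 that was lower, beside 5.37% and 5.70% of all genes. The median log2 fold change of the 27 genes was −0.10. *Abca3*, a phospholipid transporter of lysosome-related organelles, had 23.0, 19.9 and 20.4 FPKM across the WT mice against 10.2, 14.6 and 14.3 FPKM across the KO mice. Every KO library lay under every WT library, with a log2 fold change of −0.67 (SE 0.21, limma p = 0.00993, exact permutation p = 0.1, adjusted p = 0.841).

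The gene without overlap in the other direction was *Abcf3*, a cytosolic family member without membrane spans, with 14.8 ± 1.04 FPKM for WT and 18.5 ± 1.33 FPKM for KO (SD, n = 3, limma p = 0.144, exact permutation p = 0.1). Below the limit of the test, *Abca6* was 0.590 to 0.847 FPKM in WT mice and 0.341 to 0.569 FPKM in KO mice, and *Abcg8*, part of a sterol exporter, was 0.149 to 0.517 FPKM in WT mice and listed at 0 to 0.133 FPKM in KO mice. Neither overlapped between the groups, and no share over genes below the limit was computed. Among these other family members, the 4 with the highest means were *Abcf1*, *Abcd3*, *Abca2* and *Abce1*. *Abcf1*, which takes part in translation initiation, had 49.4 ± 5.28 FPKM for WT and 46.7 ± 10.5 FPKM for KO, and *Abcd3*, a peroxisomal transporter, had 27.1 ± 3.61 and 31.3 ± 4.49 FPKM (SD, n = 3). *Abca2*, which is abundant in oligodendrocytes, had 24.9 ± 2.41 FPKM for WT and 20.4 ± 5.16 FPKM for KO, and *Abce1*, a ribosome recycling factor, had 18.3 ± 1.44 and 24.1 ± 5.79 FPKM (SD, n = 3). The groups overlapped in each of these 4 genes. *Abca4*, named here after its values were seen, had 16.9, 13.3 and 16.4 FPKM across the WT mice against 19.9, 8.997 and 50.03 FPKM across the KO mice. The choroid plexus markers had the same order of KO libraries. The part of choroid plexus RNA in the *Abca4* values was not tested.

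**Figure D4:**
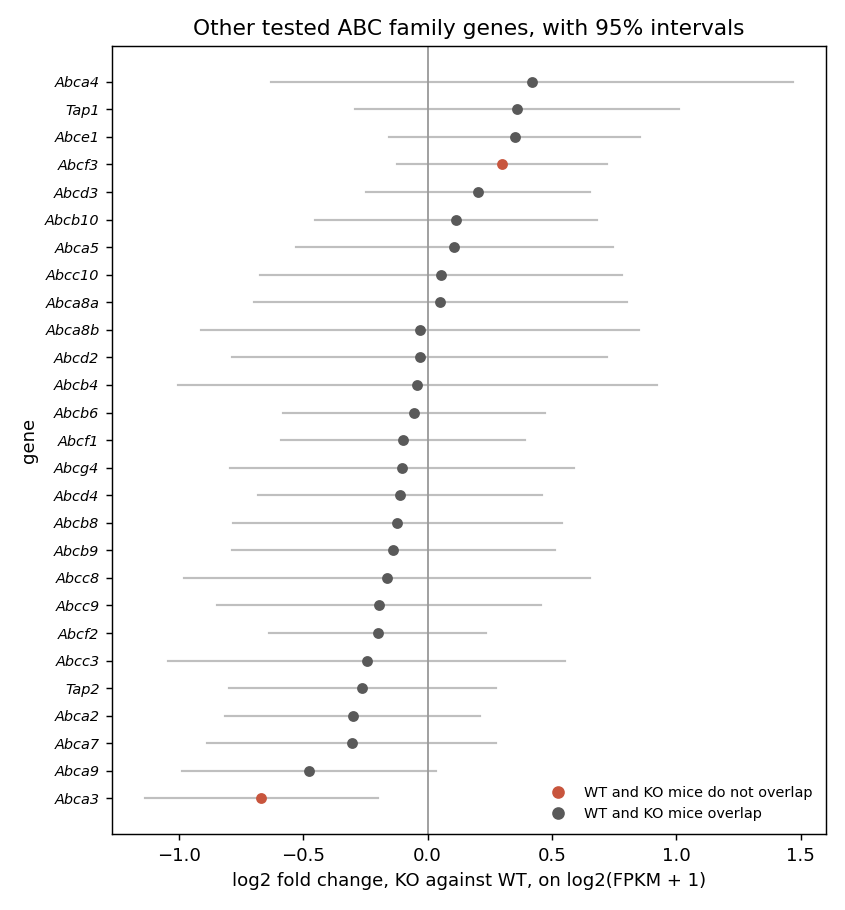
Log2 fold change of KO against WT mice for 27 other ABC family genes tested, with 95% confidence intervals from limma as bars and red points where the WT and KO mice do not overlap. The red points are *Abca3* below 0 and *Abcf3* above 0.

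Genes that regulate, anchor or feed the transporters were taken from lists by function. Of the 17 transcriptional regulators, 13 were tested, with 0 at an unadjusted limma p under 0.05, beside 5.88% of all genes. The groups did not overlap for 2 of the 13, 1 higher and 1 lower, beside 5.37% and 5.70% of all genes. The higher was *Hif1a*, the oxygen-regulated factor, with 18.6 ± 1.92 FPKM for WT and 25.9 ± 4.88 FPKM for KO (SD, n = 3, limma p = 0.0581, exact permutation p = 0.1). The lower was *Keap1*, which marks the Nrf2 protein for degradation, with 17.5 ± 1.198 FPKM for WT and 13.02 ± 0.326 FPKM for KO (SD, n = 3, limma p = 0.0601, exact permutation p = 0.1). *Nfe2l2*, the gene of Nrf2 itself, had 27.3 ± 5.23 and 25.7 ± 4.39 FPKM, and *Ctnnb1*, the gene of beta-catenin, had 245 ± 19.0 and 247 ± 25.3 FPKM (SD, n = 3). *Pparg*, a nuclear receptor for fatty acids, was under the limit of the test, with 0.411, 0 and 0.307 FPKM across the WT mice against 1.04, 1.27 and 2.28 FPKM across the KO mice, without overlap, and here too no share over genes below the limit was computed.

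Of the 18 genes of sterol homeostasis, 17 were tested, and 0 were higher and 1 was lower at an unadjusted limma p under 0.05, beside 2.77% and 3.11% of all genes. That gene was *Lrp1*, a large receptor for apolipoprotein E, with 89.8, 91.4 and 78.9 FPKM across the WT mice against 50.3, 50.4 and 68.9 FPKM across the KO mice. Every KO library lay below the WT libraries, as for 5.70% of all genes, with a log2 fold change of −0.62 (SE 0.20, limma p = 0.0124, exact permutation p = 0.1, adjusted p = 0.841). *Apoe*, the main lipid carrier of brain, had 2983 ± 678 FPKM for WT and 2257 ± 614 FPKM for KO, and *Pltp*, a phospholipid transfer protein, had 459 ± 88.8 and 337 ± 56.3 FPKM (SD, n = 3). In both the groups overlapped.

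None of the 8 genes that anchor or organise pumps in the membrane had an unadjusted limma p under 0.05, beside 5.88% of all genes. *Cavin1*, a coat protein of caveolae listed under its earlier symbol *Ptrf*, had 198 ± 39.7 FPKM for WT and 185 ± 51.5 FPKM for KO, and *Ezr*, which links membrane proteins to actin, had 111 ± 15.5 and 151 ± 78.1 FPKM (SD, n = 3). The 12 genes of glutathione supply and conjugation gave 0 as well, beside the same 5.88%, with *Gsta4* at 155 ± 32.8 and 173 ± 68.1 FPKM and *Gstm1* at 78.1 ± 6.52 and 65.2 ± 20.7 FPKM in WT and KO mice, respectively (SD, n = 3). Of 7 solute carriers that take up drugs and organic anions, 6 were tested, with 0 at an unadjusted limma p under 0.05, beside 5.88% of all genes, and 1 without overlap, beside 11.1%. Here *Slco1c1*, a carrier of thyroid hormone, had 115 ± 4.82 FPKM for WT and 149 ± 31.5 FPKM for KO without overlap (SD, n = 3, limma p = 0.135, exact permutation p = 0.1). *Slc22a8*, an organic anion carrier, had 104 ± 19.1 and 78.8 ± 21.3 FPKM (SD, n = 3), and its groups overlapped.

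Similarity of pattern was measured for the 3 pumps *Abcb1a*, *Abcg2* and *Abcc4* as the root mean square difference of centred log2(FPKM + 1) over the 6 libraries, among 14120 genes. The genes nearest to *Abcb1a* were *Fgd5*, an endothelial exchange factor for small GTPases, at a difference of 0.04 and *Amotl2*, of the angiomotin family, at 0.05, where the SD of *Abcb1a* itself was 0.27. *Fgd5* had 15.6, 13.7 and 10.04 FPKM across the WT mice against 10.2, 9.92 and 11.3 FPKM across the KO mice. Nearest to *Abcg2* were *Sepp1*, the gene of a selenium-carrying plasma protein, and *Sec24b*, of the COPII coat, at differences of 0.05 and 0.06. Nearest to *Abcc4* were *Psmg1*, a proteasome assembly chaperone, and *Ehd2*, an ATPase of caveolae, both at 0.06. The nearest of 14120 genes over 6 libraries are close by selection. No typical distance was computed, so no shared regulation is read from these neighbours.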

How the data were processed

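Total RNA of microvessels from 3 WT and 3 KO brains was isolated with TRIzol, and directional libraries (NEBNext Ultra II) were read from both ends, 100 bases each. The authors trimmed the reads (FASTX_Trimmer, BBMap), mapped them with TopHat (to mm10, per the submitters' processing notes) and deposited FPKM values per gene symbol. The program that made these FPKM values is not given in the sources used here. FPKM keeps no counts, so the authors' DESeq2 comparison was not repeated.

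Libraries were grouped and numbered by their titles. The column headers carry the same groups, with numbers that differ from the titles for most libraries and were not used. Values were analysed as log2(FPKM + 1) with limma 3.58.1 (R 4.3.3, trended prior variance, no added scaling) for genes whose mean reached 1 FPKM. Adjustment was by Benjamini-Hochberg over all genes tested. Exact permutation tests used scipy 1.17.1. The script was tested on simulated data. The labels name no batch. Permutation p-values rest on these libraries alone. The limma p-values set a difference against the spread between these libraries, moderated by the variance trend over all genes tested.

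Depth came from the ratios of values under 0.3 FPKM between libraries, put on an absolute scale with 4518 genes of a single annotated transcript. Fragment estimates use the longest coding transcript, and intervals (exact Poisson, 95%) cover counting error only. Sequences and positions came from GENCODE M21.

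The transporters and the gene lists were chosen with earlier results of these data known. Some members of the ABC family list are not reported here. Named genes were the transporters, the targeted gene, members of the functional lists with an unadjusted p under 0.05 or no overlap, those with the highest means (4 of the ABC family, 2 of each other list) and the 2 genes nearest in pattern to each of 3 pumps, and cell type markers where a result touches them. *Abca4* was named outside this rule. Alternatives were other filters (none, or a mean of 5 FPKM), a pseudocount of 0.1, scaling by a trimmed mean, median, quantiles or endothelial markers, a replicate block, no variance trend, a correction for GC content (loess, span 0.3), and each library left out.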

Additional observations from a re-analysis of the deposited data

How the results depend on the processing

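The count of transporters with an adjusted limma p under 0.05 was 0, and so was the count at an unadjusted p, under each of the alternatives and with each library left out. The counts of groups without overlap ran from 0 to 2 with a library left out (*Abcc6* without WT 1, *Abcg1* without WT 2, *Abcb1a* and *Abcg2* without WT 3, *Abca1* and *Abcg1* without KO 2, *Abcc1* and *Abcc6* without KO 3), each of them lower in KO mice. Directions close to 0 turned. The log2 fold change of *Abcc1* was −0.0023 with a pseudocount of 0.1 and −0.0075 after quantile normalization. Scaling to the endothelial markers, which moved the median of all genes to 0.20, gave 0.17 for *Abcg2*, 0.18 for *Abcc4* and 0.0225 for *Abca1*. The same scaling without *Cdh5*, chosen after seeing the data, gave 0.0356 for *Abcg2*, 0.0377 for *Abcc4* and −0.11 for *Abca1*. After the correction for GC content, *Abcg2* was −0.23 and *Abcb1a* −0.37. The cause was not tested. Leaving out single libraries, the log2 fold change ran from −0.47 to −0.13 for *Abcb1a*, −0.19 to 0.0428 for *Abcg2*, −0.30 to 0.25 for *Abcc1*, −0.23 to 0.20 for *Abcc4*, −0.46 to 0.43 for *Abcc5*, −0.76 to −0.38 for *Abcc6*, −0.32 to −0.10 for *Abca1* and −0.33 to −0.14 for *Abcg1*. The *Abcb1b* to *Abcb1a* log2 ratio ran from −0.79 to 0.58. *Gadd45gip1* stayed negative, from −0.86 to −0.62 in these fits, with an adjusted p of at least 0.261 under any alternative.

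Over the whole table, 838 genes had an unadjusted limma p under 0.05, against 451 to 1865 with a library left out and 1268 with endothelial marker scaling. After adjustment there were 0, against 0 to 6 with a library left out (2 without WT 3, 6 without KO 2 and 4 without KO 3). The replicate block on the title numbers gave 0 transporters at an unadjusted p under 0.05, 0 at an adjusted one, and a log2 fold change of −0.28 for *Abcb1a*, and it changed no call on a transporter or on *Gadd45gip1*. Over the whole table it gave 871 genes at an unadjusted p under 0.05. Libraries with the same title number did not deviate together (correlations of 0.037, 0.027 and 0.002 across genes), so no pairing by these numbers was seen. Such correlations cannot exclude a pairing of mice, and the numbers in the column headers were not tried. *Abcc6* could not be tested at a mean of 5 FPKM, and *Abcb1b* was tested with no filter, where its log2 fold change was −0.18 (limma p = 0.599, exact permutation p = 0.7).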

Other observations

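The ratio of 1 transporter to another within a library does not depend on a factor common to all genes of a library. Of the 36 ratios among the 9 genes, 2 did not overlap between WT and KO mice (5.56%). The ratios share genes and are not independent, and no share over other gene pairs was computed, so nothing is read from the count. Both are given as values only, chosen after they were seen. *Abcb1a* amounted to 108%, 93.0% and 92.1% of *Abcg2* in WT 1, WT 2 and WT 3 and to 84.3%, 78.0% and 84.1% in KO 1, KO 2 and KO 3. The log2 ratio differed by −0.25 between the groups (SDs of 0.13 for WT and 0.06 for KO, n = 3, exact two-sided permutation p = 0.1, the smallest that this design can give). A correction for GC content, which acts on each gene apart, brought the log2 fold changes of *Abcb1a* and *Abcg2* closer together, from −0.28 and −0.04 to −0.37 and −0.23. The ratio of *Abcc1* to *Abcc6* was higher in KO mice, by 0.93 on the log2 scale (exact two-sided permutation p = 0.1), where *Abcc6* is among the lowest of the 9 genes. Neither ratio was adjusted for the 36 comparisons, and no explanation was tested.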
